A study of Mus musculus with 6 samples.

Results

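The glucocorticoid-responsive genes and metallothioneins described here are 10 mouse genes taken by symbol from the count tables: Nr3c1, Fkbp5, Tsc22d3, Sgk1, Zbtb16, Dusp1, Errfi1, Mt1, Mt2 and Mt3. All 10 were found among 38926 listed symbols, and all 10 passed the filter on low counts that left 16706 genes for testing. Glucocorticoids bind the receptor encoded by Nr3c1, which then leaves its chaperones, enters the nucleus and switches genes on or off at glucocorticoid response elements. In the peripheral nervous system the receptor is present in neurons, glia and immune cells, and steroid levels move with stress and time of day. Metallothioneins are small cysteine-rich proteins that hold zinc and copper; Mt1 and Mt2 are classic targets of both glucocorticoids and the zinc sensor MTF1.

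RNA came from dorsal root ganglia, which hold the cell bodies of sensory neurons among satellite glia, Schwann cells, blood vessels and immune cells. The vincristine group comprised 3 pools from wild-type C57BL/6 females aged 8 to 10 weeks that had received the drug into the paw to a cumulative 40 µg; vincristine is a vinca alkaloid of cancer chemotherapy that binds tubulin. The vehicle group comprised 3 pools from females of the same strain and age. Each pool held the ganglia of lumbar levels 3, 4 and 5 from 4 animals, taken on the side of the treated paws, so the spread between libraries is a spread between pools and not between animals. The comparison asks how transcript levels in these ganglia differ between drug and vehicle.

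Reads counted in genes came to 12374331, 19406150 and 26346304 in vincristine replicates 1, 2 and 3, and to 17967934, 19546519 and 19917055 in vehicle replicates 1, 2 and 3. A member had between 275 and 4572 reads in a library, for which counting error alone is 6.03% and 1.48% of the value. Vincristine replicate 1 stood apart from the other libraries on the first principal component, which held 56.4% of the variance. This library also had the fewest reads in genes. Its share of tallied alignments outside genes was 24.8%, against 14.8% to 17.0% in the other libraries. Its share of mitochondrially encoded reads was 7.45%, against 5.11% to 6.79%. The part of these library differences in the results below was not tested. All 10 neuron markers had reads, none at 0, and their summed level in CPM (counts scaled to library size with TMM factors) was 3803 to 10093 CPM in vincristine and 8219 to 10772 CPM in vehicle, with 3803 CPM in vincristine replicate 1. The 13 neutrophil markers summed to 2552 to 7764 CPM in vincristine and 813 to 1420 CPM in vehicle, with 13 of 13 log2 fold changes above 0; the 9 erythroid markers summed to 5225 to 13475 CPM in vincristine and 2698 to 4444 CPM in vehicle, and the 12 monocyte and macrophage markers to 638 to 1023 CPM in vincristine and 435 to 513 CPM in vehicle, with none of these markers at 0. The highest of each of these 3 sums was in vincristine replicate 1, and the part of this cell content in the results below was not tested. In bulk tissue, fewer cells of a type and less RNA per cell cannot be told apart.

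The 10 genes did not move as a block after vincristine. Zbtb16 and Mt2 were higher in every vincristine library than in any vehicle library, Tsc22d3 was lower on average, and Nr3c1, Sgk1, Errfi1 and Mt3 had log2 fold changes within 0.13 of zero. By edgeR with adjustment over all genes tested, 0 of the 10 passed the adjusted threshold of 0.05, against 0.359% of all genes (0.293% higher and 0.0658% lower). Before adjustment 3 of the 10 had p under 0.05, 2 higher (Zbtb16 and Mt2) and 1 lower (Tsc22d3), against 11.4% of all genes, 8.1% higher and 3.27% lower. DESeq2 called 1 of the 10, Zbtb16, against 2.81% of all genes, and limma-voom called 0 against 0.21%. Without vincristine replicate 1, edgeR again called 0 of the 10, while 2.05% of all genes were called and the members' median log2 fold change was 0.05. With all libraries the median log2 fold change of the members was 0.13, beside -0.0033 over all genes tested; 7 were above 0 and 3 below, and 49.3% of all genes were above 0. In 3 of the 10 (Zbtb16, Dusp1 and Mt2) every vincristine library lay above every vehicle library, a pattern held by 11.5% of all genes, and in 0 of the 10 did every vincristine library lie below, against 9.51%.

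**Figure D1:**
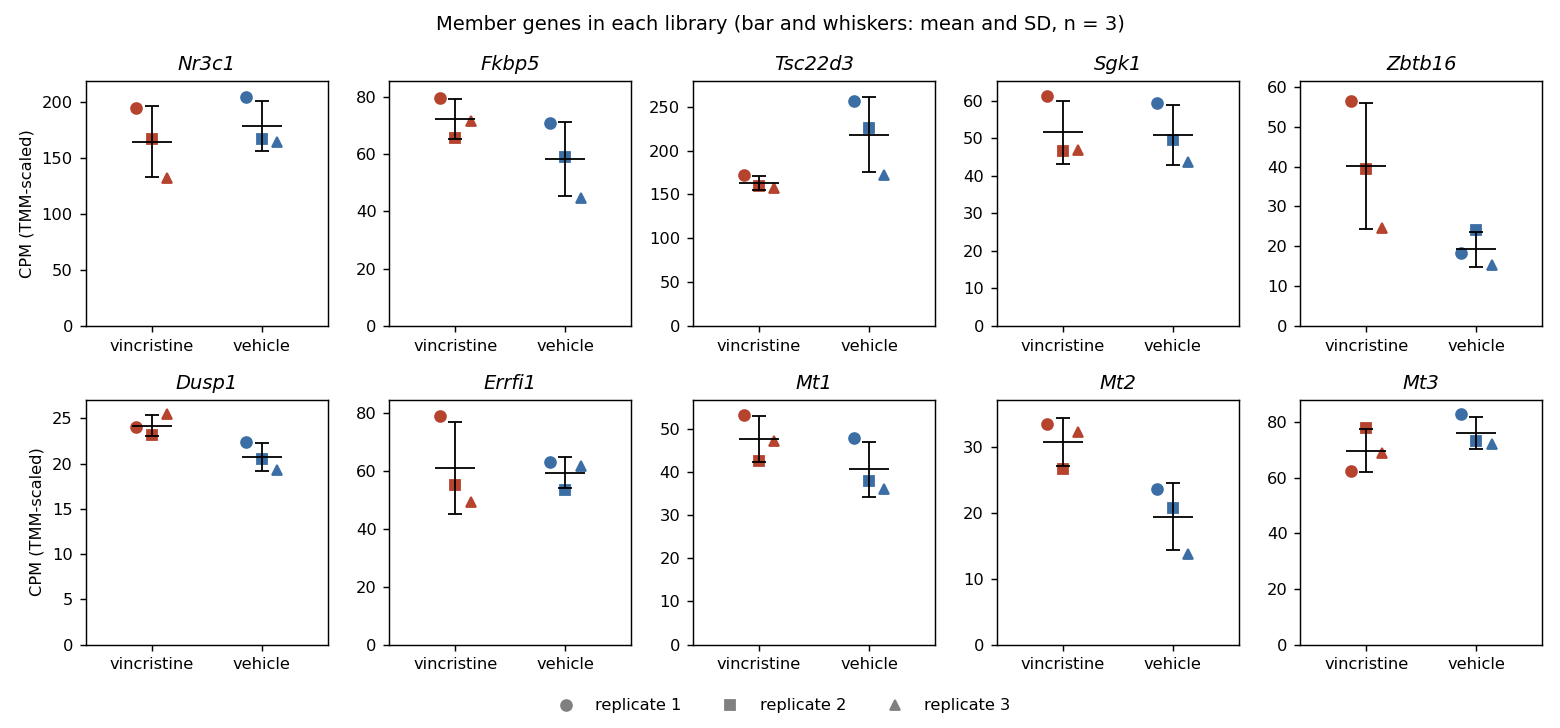
TMM-scaled CPM of each of the 10 genes in the 3 vincristine libraries (left) and the 3 vehicle libraries (right), with marker shapes for replicate numbers and a bar with whiskers for the mean and SD. The groups are apart for Zbtb16, Dusp1 and Mt2, and the vehicle libraries spread widely for Tsc22d3, Fkbp5 and Mt2.

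Levels differed widely between the genes. Per kilobase of the principal transcript in GENCODE M21, Mt3 was highest, at 130 ± 14.7 CPM per kb in vincristine and 141.8 ± 10.98 CPM per kb in vehicle (SD, n = 3 each, as for the levels that follow). Tsc22d3 was at 82.8 ± 4.04 CPM per kb in vincristine and 111 ± 21.5 in vehicle, and Mt1 at 86.7 ± 9.69 in vincristine and 74.0 ± 11.6 in vehicle. The order of these means differed between the groups. In vincristine replicate 2, however, Tsc22d3 (81.1 CPM per kb) was above Mt1 (77.4), as in the vehicle libraries. Mt2 followed at 60.3 ± 7.13 CPM per kb in vincristine and 38.0 ± 9.98 in vehicle, and Nr3c1 at 25.6 ± 4.92 in vincristine and 27.8 ± 3.52 in vehicle. Sgk1 (21.0 ± 3.40 CPM per kb in vincristine and 20.7 ± 3.24 in vehicle), Errfi1 (20.1 ± 5.20 in vincristine and 19.5 ± 1.74 in vehicle) and Fkbp5 (18.7 ± 1.85 in vincristine and 15.1 ± 3.39 in vehicle) had overlapping ranges within each group. Dusp1 was at 12.2 ± 0.596 CPM per kb in vincristine and 10.4 ± 0.785 in vehicle. Zbtb16, the lowest, was at 7.85 ± 3.11 CPM per kb in vincristine and 3.76 ± 0.859 in vehicle. Among the 15756 tested genes with a length, Zbtb16 stood at percentile 49.9 in vincristine and 33.2 in vehicle, whereas Mt3 stood at percentile 97.9 in vincristine and 98.0 in vehicle.

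The receptor gene itself differed little between the groups. Nr3c1 was at 195, 167 and 132 CPM in vincristine replicates 1, 2 and 3, and at 205, 167 and 165 CPM in vehicle replicates 1, 2 and 3. The groups overlapped, and the lowest library was vincristine replicate 3. Its log2 fold change was -0.12 ± 0.18 (SE; 95% interval -0.53 to 0.30; edgeR adjusted p = 0.833). Without vincristine replicate 3 the log2 fold change was 0.021, so its sign rests on that library; it was -0.26 without vincristine replicate 1 and -0.012 without vehicle replicate 1.

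Fkbp5 encodes a co-chaperone that lowers the receptor's affinity for hormone and is itself switched on by the receptor, which makes it a common readout of glucocorticoid action. It was at 79.7, 65.5 and 71.6 CPM in vincristine libraries and at 70.9, 59.1 and 44.8 CPM in vehicle libraries. Vehicle replicate 1 lay within the vincristine range, so the groups overlapped. The log2 fold change was 0.31 ± 0.18 (95% interval -0.11 to 0.73; edgeR adjusted p = 0.565), and it was 0.15 without vehicle replicate 3 and 0.47 without vehicle replicate 1. The gene spans chr17:28399094-28517527 on the minus strand of GRCm38.

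Tsc22d3 encodes GILZ, a leucine zipper protein that carries part of the anti-inflammatory action of glucocorticoids. It was at 173, 160 and 158 CPM in vincristine libraries and at 256, 226 and 172 CPM in vehicle libraries. The vincristine libraries were close together, and the highest of them, at 172.6 CPM, lay just above vehicle replicate 3, at 172.2 CPM, so the groups touched at that end. The log2 fold change was -0.42 ± 0.17 (95% interval -0.81 to -0.03; edgeR adjusted p = 0.404; DESeq2 adjusted p = 0.266), which did not pass. It was -0.56 without vehicle replicate 3 and -0.29 without vehicle replicate 1, and by DESeq2 the gene was called without vehicle replicate 3 (adjusted p = 0.0317). The gene spans chrX:140539528-140600659 on the minus strand.

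Zbtb16 encodes PLZF, a zinc finger repressor that many cell types switch on strongly under glucocorticoids. Its levels were 56.4, 39.3 and 24.7 CPM in vincristine libraries and 18.3, 24.0 and 15.4 CPM in vehicle libraries. The groups did not overlap, although vincristine replicate 3 and vehicle replicate 2 were close. The log2 fold change was 1.06 ± 0.31 (95% interval 0.33 to 1.78; higher in 3 of 3 vincristine libraries), with an edgeR adjusted p of 0.266 and a DESeq2 adjusted p of 0.0489. It was the only one of the 10 that DESeq2 called. Without vincristine replicate 1 the log2 fold change was 0.73 (edgeR adjusted p = 0.238; DESeq2 adjusted p = 0.0918). The DESeq2 call was also lost without vincristine replicate 2 and without vehicle replicates 1 and 3 (DESeq2 adjusted p = 0.117, 0.252 and 0.324), and held without vincristine replicate 3 and vehicle replicate 2 (0.000439 and 0.0496). The gene lies on chr9:48654297-48836222, minus strand, and GENCODE lists no other gene over its exons.

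**Figure D2:**
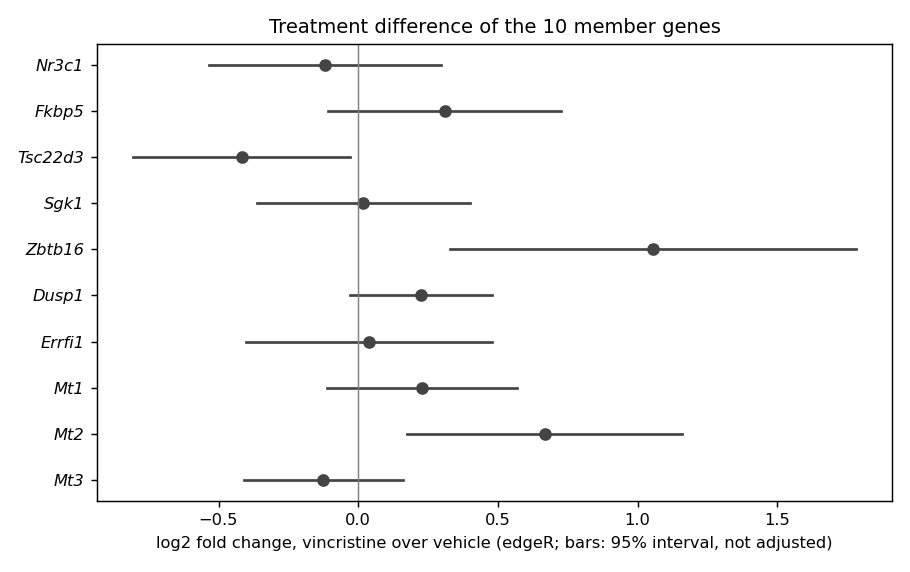
Log2 fold change of each gene, vincristine over vehicle (horizontal axis; point, edgeR estimate; bar, 95% interval not adjusted for the number of genes). The intervals of Zbtb16 and Mt2 lie above 0, that of Tsc22d3 lies below 0 (-0.81 to -0.03), and the other 7 include 0.

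Sgk1 encodes a kinase that glucocorticoids and mineralocorticoids induce and that acts on ion channels and transporters. It was at 61.2, 46.5 and 46.9 CPM in vincristine libraries and at 59.3, 49.6 and 43.5 CPM in vehicle libraries, and the groups overlapped throughout. The log2 fold change was 0.02 ± 0.16 (95% interval -0.36 to 0.40; edgeR adjusted p = 0.978), and it was -0.12 without vincristine replicate 1 and -0.08 without vehicle replicate 3.

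Sgk1 is shown with sequence because, of the 16 RefSeq start windows found for 8 of the 10 genes (GRCm38.p6; the 250 bases before each start), only 1 of its windows and that of Mt1 held a full palindromic glucocorticoid response element, searched on both strands as GNACA and TGTNC with 3 free bases between them. Such a match stood in 0.387% of 32851 windows of the same length. The window before this Sgk1 start is chr10:21993640-21993889, plus strand, with the match in capitals; the match begins 964 bases before the start of the principal transcript.
Sgk1: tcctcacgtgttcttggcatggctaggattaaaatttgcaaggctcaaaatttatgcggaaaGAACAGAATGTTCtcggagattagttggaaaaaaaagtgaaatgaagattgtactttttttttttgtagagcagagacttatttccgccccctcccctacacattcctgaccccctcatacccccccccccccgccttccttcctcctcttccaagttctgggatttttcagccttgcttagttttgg
A match is a run of letters and was not measured as a bound site, and Nr3c1 and Zbtb16 were not searched. Sgk1 had more of the 16 windows than any other gene. The Fkbp5 start lay 31375 bases after that of its principal transcript. Those of Tsc22d3 lay at 519, -57335 and -5384 bases from theirs (negative, before it). A window without a match thus does not describe a gene's whole promoter.

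Dusp1 and Errfi1 encode brakes on growth factor signalling: Dusp1 removes phosphate from MAP kinases and Errfi1 inhibits the EGF receptor, and both are also switched on quickly by growth factors and stress. Dusp1 was at 24.0, 23.1 and 25.5 CPM in vincristine libraries and at 22.4, 20.5 and 19.2 CPM in vehicle libraries. All vincristine values were above all vehicle values, by a small margin. The log2 fold change was 0.23 ± 0.11 (95% interval -0.03 to 0.48; edgeR adjusted p = 0.495). The annotation has Ergic1 on the opposite strand over 11 bases of Dusp1 exons, and the sources used here give no strand setting for the counts. Errfi1 was at 79.0, 55.1 and 49.2 CPM in vincristine libraries and at 63.2, 53.4 and 61.7 CPM in vehicle libraries. Vincristine libraries held both its highest and its lowest value. Its log2 fold change was 0.04 ± 0.19 (95% interval -0.40 to 0.48; edgeR adjusted p = 0.960), and -0.19 without vincristine replicate 1.

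The metallothionein genes lie side by side on chromosome 8, plus strand: Mt3 at chr8:94152607-94154146, Mt2 at chr8:94172664-94173568 and Mt1 at chr8:94179082-94180327, each protein-coding. Mt1 and Mt2 are made in most tissues and rise with zinc, copper, cadmium and glucocorticoids, whereas Mt3 is the form of the nervous system and is known for responding little to metals. Their start windows are printed with the matches to metal response element cores, searched on both strands as TGCACNC or TGCGCNC. The 250 bases before the RefSeq start (chr8:94178839-94179088 for Mt1, chr8:94172368-94172617 for Mt2 and chr8:94152357-94152606 for Mt3) held 1 match in Mt1, 3 in Mt2 and 0 in Mt3. Capitals mark these cores and, in Mt1, the longer glucocorticoid response element match that begins 94 bases before the start.
Mt1: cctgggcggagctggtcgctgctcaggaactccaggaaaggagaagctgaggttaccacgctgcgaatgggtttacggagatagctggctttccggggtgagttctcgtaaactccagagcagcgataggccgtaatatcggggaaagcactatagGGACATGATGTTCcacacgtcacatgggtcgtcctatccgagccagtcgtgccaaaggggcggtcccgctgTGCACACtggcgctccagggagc
Mt2: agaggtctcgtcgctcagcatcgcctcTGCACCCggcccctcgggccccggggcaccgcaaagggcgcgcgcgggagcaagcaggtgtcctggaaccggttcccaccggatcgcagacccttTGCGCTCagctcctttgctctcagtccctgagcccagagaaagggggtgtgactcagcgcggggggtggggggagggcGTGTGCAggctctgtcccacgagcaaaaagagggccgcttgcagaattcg
Mt3: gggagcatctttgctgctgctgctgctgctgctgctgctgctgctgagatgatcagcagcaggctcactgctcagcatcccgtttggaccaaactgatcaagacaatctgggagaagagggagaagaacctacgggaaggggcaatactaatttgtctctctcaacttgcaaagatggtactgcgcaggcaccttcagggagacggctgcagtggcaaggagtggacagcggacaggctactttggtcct
At least 1 core stood in 21.4% of all windows and at least 2 in 5.17%, and cores beyond these windows were not searched. The RefSeq start lay 7 bases after the start of the principal transcript in Mt1 and 46 bases before it in Mt2. The windows are thus not placed alike, and their counts do not compare the genes' whole promoters.

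Mt2 was higher after vincristine in all 3 libraries, by about as much as its vehicle libraries differed among themselves. It was at 33.5, 26.7 and 32.3 CPM in vincristine libraries and at 23.6, 20.8 and 13.7 CPM in vehicle libraries. The groups did not overlap, and vehicle replicate 3 was well below the other vehicle libraries. The log2 fold change was 0.67 ± 0.21 (95% interval 0.18 to 1.16; edgeR adjusted p = 0.299; DESeq2 adjusted p = 0.146), which did not pass, and it was 0.47 without vehicle replicate 3. An antisense gene, Gm45774, overlaps 432 bases of the Mt2 exons. The gene annotation and strand setting of the counts are not given, so how reads over this stretch were counted is not known.

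Mt1 was at 53.1, 42.5 and 47.2 CPM in vincristine libraries and at 47.9, 37.9 and 36.1 CPM in vehicle libraries. The groups overlapped through vehicle replicate 1. Its log2 fold change was 0.23 ± 0.14 (95% interval -0.11 to 0.57; edgeR adjusted p = 0.600), and it was 0.14 without vincristine replicate 1, 0.15 without vehicle replicate 3 and 0.36 without vehicle replicate 1. Mt3 was at 62.2, 77.9 and 68.9 CPM in vincristine libraries and at 82.8, 73.2 and 72.1 CPM in vehicle libraries, a log2 fold change of -0.13 ± 0.12 (95% interval -0.41 to 0.16; edgeR adjusted p = 0.724). Leaving out vincristine replicate 1 gave -0.051, leaving out vincristine replicate 2 gave -0.21 and leaving out vehicle replicate 1 gave -0.062. The lowest Mt3 value was in vincristine replicate 1, where the summed neuron markers were also lowest. The highest was in vehicle replicate 1, where that sum was the lowest of the vehicle libraries (8219 CPM, against 10772 and 10511 CPM). The part of neuron content in Mt3 was not tested. The remaining mouse metallothionein, Mt4, had 2 reads in vincristine replicate 3 and 0 in each other library, too few to test.

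Ratios between the genes inside a library do not depend on library scaling, and several lay apart between the groups. Of 45 ratios between members, 23 (51.1%) did not overlap between the groups, against 22.6% of the ratios between all 7938 tested genes with at least 275 reads in every library. The 45 ratios share their 10 genes and are not independent, so the difference between these shares was not tested. Mt2 took part in 8 of the 23, Tsc22d3 in 6, Nr3c1, Sgk1 and Zbtb16 in 5 each, Fkbp5, Dusp1 and Mt1 in 4 each, Mt3 in 3 and Errfi1 in 2. Tsc22d3, Zbtb16 or Mt2, the 3 members with an unadjusted edgeR p under 0.05, took part in 24 of the 45 ratios. Of the 23 that did not overlap, 17 held at least 1 of these 3 genes, so the share largely follows their single differences. Reads of Tsc22d3 per read of Mt2 were 5.15, 6.00 and 4.89 in vincristine libraries and 10.8, 10.9 and 12.5 in vehicle libraries, the widest gap of the 45. Reads of Fkbp5 per read of Tsc22d3 were 0.462, 0.409 and 0.454 in vincristine libraries and 0.277, 0.261 and 0.260 in vehicle libraries, with means of 0.442 ± 0.0284 in vincristine and 0.266 ± 0.00927 in vehicle (SD, n = 3 each). The vehicle libraries, which differed widely in the level of both genes, were close together in this ratio. Reads of Mt1 per read of Mt2 were 1.58, 1.59 and 1.46 in vincristine libraries and 2.03, 1.82 and 2.63 in vehicle libraries, so the balance of this gene pair lay nearer to Mt2 in every vincristine library. For each of these ratios the exact two-sided permutation test gave p = 0.1, the smallest that 3 libraries against 3 can give, and the ratios named were chosen after their values were seen.

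**Figure D3:**
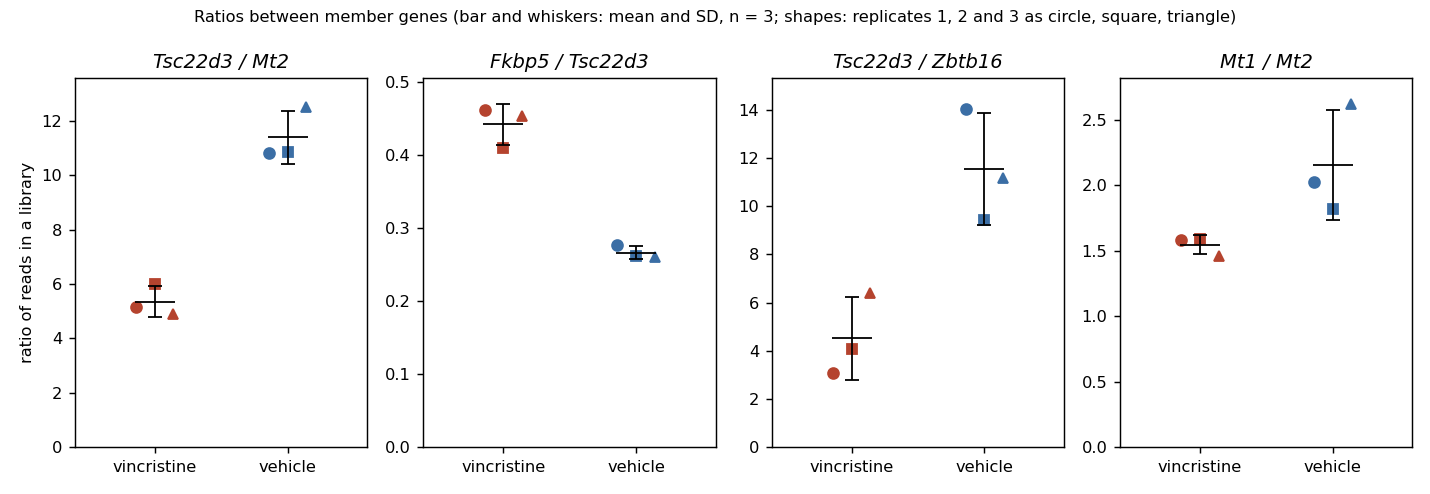
Ratio of the reads of one member to those of another in each library (vincristine left, vehicle right; bar and whiskers, mean and SD). In all 4 ratios shown the groups do not overlap, with Tsc22d3 per Mt2 at 4.89 to 6.00 in vincristine and 10.8 to 12.5 in vehicle.

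Within each group a single library was high for most members. Among the vincristine libraries, replicate 1 was the highest for 8 of the 10, against 42.5% of all genes; Dusp1 and Mt3 were the exceptions. Among the vehicle libraries, replicate 1 was the highest for 9 of the 10 genes (all but Zbtb16) and replicate 3 the lowest for 9 (all but Errfi1), against 39.8% and 31.5% of all genes tested. Per1, a clock gene that glucocorticoids also induce and that was picked out after its values were seen, was at 33.2, 31.0 and 25.8 CPM in vincristine replicates 1, 2 and 3 and at 50.9, 39.8 and 22.6 CPM in vehicle replicates 1, 2 and 3. It too was highest in vehicle replicate 1 and lowest in vehicle replicate 3. Over the 23 tested genes of the list of other glucocorticoid-responsive genes below, the median log2 deviation from the vehicle mean was 0.25, -0.05 and -0.18 in these libraries. Single genes of that list differed: Angptl4 was at 25.1, 20.8 and 43.1 CPM and Pdk4 at 14.5, 12.9 and 16.6 CPM in vehicle replicates 1, 2 and 3. The sources used here give no time of day for the tissue, and its part was not tested.

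**Figure D4:**
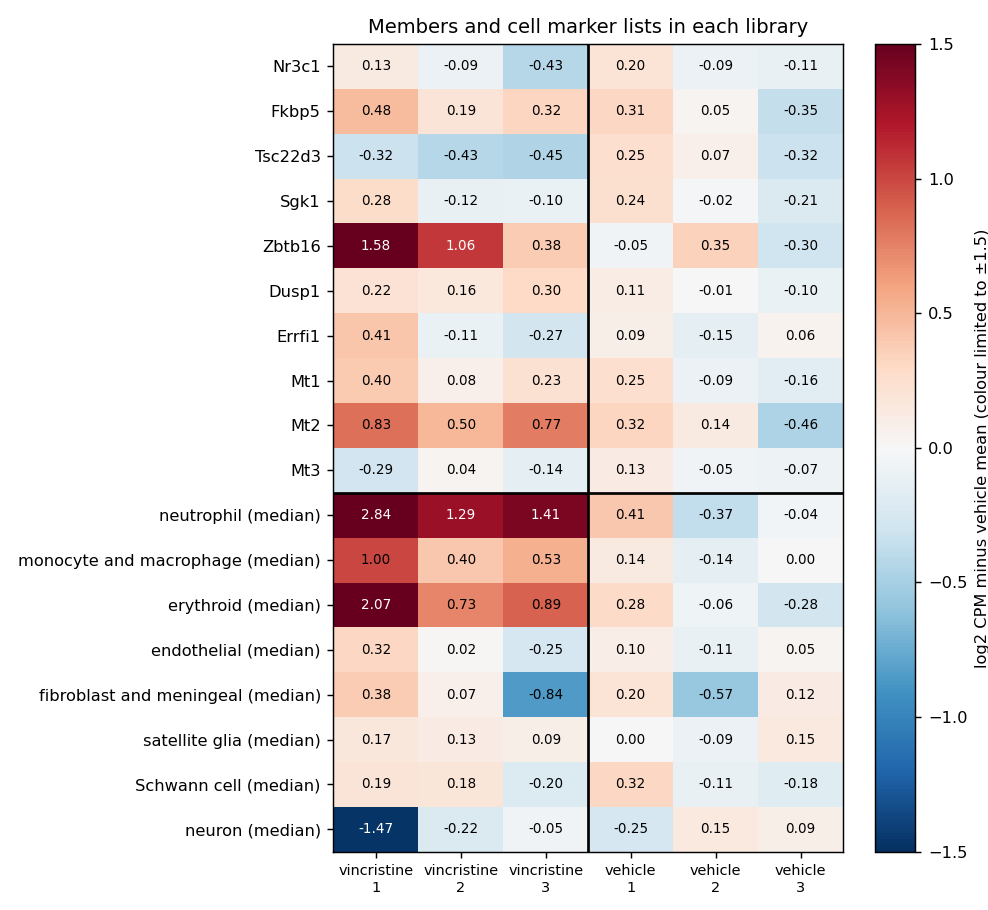
Log2 CPM minus the vehicle mean for each of the 10 genes (upper rows) and, for 8 cell marker lists, the median over their genes (lower rows), in the 3 vincristine and 3 vehicle libraries. Vincristine replicate 1 holds the highest Zbtb16 value (1.58), the highest neutrophil median (2.84) and the lowest neuron median (-1.47).

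Genes whose pattern over the 6 libraries was most like Fkbp5, among 15633 genes averaging 1 CPM or more, were Gm9843, listed as a pseudogene (Pearson r = 0.988 of log2 CPM), the RNA helicase gene Ddx52 (0.987) and 9930104L06Rik (0.985). Those most like Mt2 were Agps, an enzyme of ether lipid synthesis (r = 0.992), the adiponectin receptor gene Adipor1 (0.990) and Ddx52 (0.987). Ddx52 itself varied little, at 29.4 to 30.1 CPM in vincristine and 27.7 to 29.4 CPM in vehicle, and these likenesses over 6 libraries are a description only.

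Among other genes known to respond to glucocorticoids, most fold changes were above zero. Of 24 listed, 23 were tested; 16 had a log2 fold change above 0 and 7 below, with a median of 0.21. By edgeR 0 of the 23 passed, 7 had an unadjusted p under 0.05, each higher (8.1% of all genes did so), and DESeq2 called 5, each higher (2.41% of all genes). These 5 were Cebpd, Cdkn1a, Lcn2, Pdk4 and Il1r2, the last pair named after their values were seen. Cebpd, a transcription factor gene of acute inflammation, was at 48.9, 38.8 and 33.8 CPM in vincristine libraries and at 24.0, 17.5 and 18.6 CPM in vehicle libraries (log2 fold change 1.01 ± 0.18; edgeR adjusted p = 0.103; DESeq2 adjusted p = 0.000325). Its groups lay well apart, and another gene, Spidr, overlaps it on the opposite strand. Cdkn1a, a cell cycle inhibitor and p53 target, was at 55.1, 68.1 and 80.3 CPM in vincristine libraries and at 42.1, 39.0 and 33.4 CPM in vehicle libraries (0.83 ± 0.16; edgeR adjusted p = 0.126), and an antisense transcript overlaps it. Lcn2, which neutrophils also make, was at 412, 146 and 162 CPM in vincristine libraries and at 66.7, 44.8 and 48.7 CPM in vehicle libraries (2.17 ± 0.42; edgeR adjusted p = 0.128). Lcn2 was highest in vincristine replicate 1, which also had the highest summed neutrophil markers. Pdk4, a brake on pyruvate oxidation, and Il1r2, the decoy receptor for interleukin-1, had log2 fold changes of 0.70 ± 0.18 and 1.95 ± 0.56. Pdk4 was at 22.2, 29.6 and 19.9 CPM in vincristine libraries and at 14.5, 12.9 and 16.6 CPM in vehicle libraries. The 7 skeletal muscle markers summed to 166, 826 and 202 CPM in vincristine libraries and 59.4, 97.3 and 418 CPM in vehicle libraries. Within each group Pdk4 and this sum were highest in the same library, and the part of muscle RNA was not tested. Il1r2, which neutrophils also make, was at 9.37, 2.19 and 3.82 CPM in vincristine libraries and at 1.79, 1.15 and 0.950 CPM in vehicle libraries. Without vincristine replicate 1 the list's median was 0.10, and edgeR called 3 of its genes, each higher (2.05% of all genes were called then, in either direction).

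The genes that load, hold and assist the receptor had a median near zero. Of 19 listed, 17 were tested, with 9 log2 fold changes above 0, 8 below and a median of 0.04; 0 passed by edgeR, and DESeq2 called 0. An unadjusted edgeR p under 0.05 held for 2 genes, Hsd11b1 and H6pd, each higher, beside 8.1% of all genes. The list's median was 0.097 without vincristine replicate 1. Hsd11b1, the enzyme that regenerates active glucocorticoid in the cell, was at 15.6, 5.12 and 6.17 CPM in vincristine libraries and at 3.70, 3.28 and 4.598 CPM in vehicle libraries. The groups did not overlap, but vincristine replicate 1 lay far above the rest (log2 fold change 1.19 ± 0.44; edgeR adjusted p = 0.368). H6pd, which supplies the cofactor of that enzyme, was at 56.8 ± 7.69 CPM in vincristine and 44.5 ± 5.81 CPM in vehicle, and the coactivator gene Crebbp at 116 ± 14.2 CPM in vincristine and 96.7 ± 5.48 CPM in vehicle (SD, n = 3 each; edgeR adjusted p = 0.416 and 0.499).

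Genes of zinc and metal handling also stayed near zero as a list. Of 29 listed, 25 were tested, with 13 log2 fold changes above 0, 12 below and a median of 0.01; 0 passed by edgeR, and DESeq2 called 0. An unadjusted edgeR p under 0.05 held for 3 genes, of which Mtf1 and Slc40a1 were higher and Slc30a6 lower, a share of the list close to the 11.4% of all genes. The list's median was 0.027 without vincristine replicate 1. Mtf1, the zinc sensor that acts on Mt1 and Mt2, was at 34.7, 31.2 and 31.4 CPM in vincristine libraries and at 27.0, 24.8 and 28.5 CPM in vehicle libraries. These groups did not overlap, and the difference did not pass (log2 fold change 0.27 ± 0.11; edgeR adjusted p = 0.391); a gene on the opposite strand overlaps Mtf1. The zinc transporter gene Slc30a6 had a log2 fold change of -0.30 ± 0.13 and the iron exporter gene Slc40a1 of 0.86 ± 0.37 (edgeR adjusted p = 0.430 and 0.438). Slc40a1 was at 47.9, 18.0 and 25.6 CPM in vincristine libraries and at 18.99, 12.04 and 19.04 CPM in vehicle libraries, with overlap.

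Around Dusp1 and Errfi1, 21 of 22 listed MAP kinase phosphatases and growth factor feedback genes were tested, with a median log2 fold change of 0.11, 14 above 0 and 7 below. Here 0 passed by edgeR, 1 had an unadjusted p under 0.05, and that gene alone was called by DESeq2 (3.27% of all genes were lower at that unadjusted level, and DESeq2 called 0.398% lower). The list's median was 0.054 without vincristine replicate 1. The called gene was Dusp2, a phosphatase of activated lymphocytes, at 0.929, 0.888 and 1.002 CPM in vincristine libraries and at 2.18, 1.72 and 3.50 CPM in vehicle libraries (log2 fold change -1.38 ± 0.33; edgeR adjusted p = 0.193; DESeq2 adjusted p = 0.0323). Genes of lymphocytes, named after their values were seen, also differed. The B cell genes Ms4a1, Cd79a and Cd79b were called lower by edgeR (adjusted p = 0.0158, 0.0183 and 0.0308), beside 0.0658% of all genes. Ms4a1 was at 0.774, 0.261 and 0.501 CPM in vincristine libraries and at 10.5, 8.75 and 18.1 CPM in vehicle libraries. The T and NK cell genes Nkg7, Cd4, Cd3g, Cd8a and Cd3e had log2 fold changes of 0.34 to 1.10, and 0 of these 5 were called by edgeR or DESeq2 (1, Nkg7, had an unadjusted edgeR p under 0.05). The part of these cells in the Dusp2 difference was not tested. Dusp6 and Dusp7, which act on ERK, had log2 fold changes of 0.29 ± 0.13 and 0.23 ± 0.11 (edgeR adjusted p = 0.453 and 0.473).

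Around Sgk1, 9 of 12 listed kinases and targets were tested, with a median log2 fold change of 0.06, 6 above 0 and 3 below; 0 passed by edgeR, and DESeq2 called 1. An unadjusted edgeR p under 0.05 held for 2 genes, Scnn1a and Foxo3, each higher, beside 8.1% of all genes, and DESeq2 called 2.41% of all genes higher. The list's median was 0.013 without vincristine replicate 1. The gene called by DESeq2 was Scnn1a, a subunit of the epithelial sodium channel, at 4.03, 1.62 and 2.27 CPM in vincristine libraries and at 0.784, 0.990 and 0.950 CPM in vehicle libraries (log2 fold change 1.502 ± 0.38; edgeR adjusted p = 0.208; DESeq2 adjusted p = 0.0375). Foxo3, a transcription factor that SGK1 restrains, was at 216 ± 19.9 CPM in vincristine and 168 ± 7.68 CPM in vehicle (SD, n = 3 each; edgeR adjusted p = 0.338). Nedd4l, a ubiquitin ligase that SGK1 inhibits, was at 74.4, 166 and 195 CPM in vincristine libraries and at 160, 244 and 206 CPM in vehicle libraries, with overlap between the groups.

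Immediate early genes, which share the rapid induction of Dusp1, all had fold changes above zero. All 12 listed were tested, 12 had a log2 fold change above 0, and the median was 0.47, beside 0.23 for Dusp1. By edgeR 0 passed, 7 had an unadjusted p under 0.05, each higher (8.1% of all genes), and DESeq2 called 4, each higher, against 2.41% of all genes (Fos, Nr4a3, Fosl2 and Jun). Fos was at 12, 14.1 and 14.7 CPM in vincristine libraries and at 7.73, 7.82 and 8.45 CPM in vehicle libraries (log2 fold change 0.77 ± 0.14; edgeR adjusted p = 0.0954; DESeq2 adjusted p = 0.00171). Nr4a3 and Fosl2 had log2 fold changes of 1.33 ± 0.26 and 0.86 ± 0.17 (edgeR adjusted p = 0.129 and 0.137). Without vincristine replicate 1 the list's median was 0.39, and edgeR called 2 of its genes, each higher. Of all genes 2.05% were called then, in either direction.

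**Figure D5:**
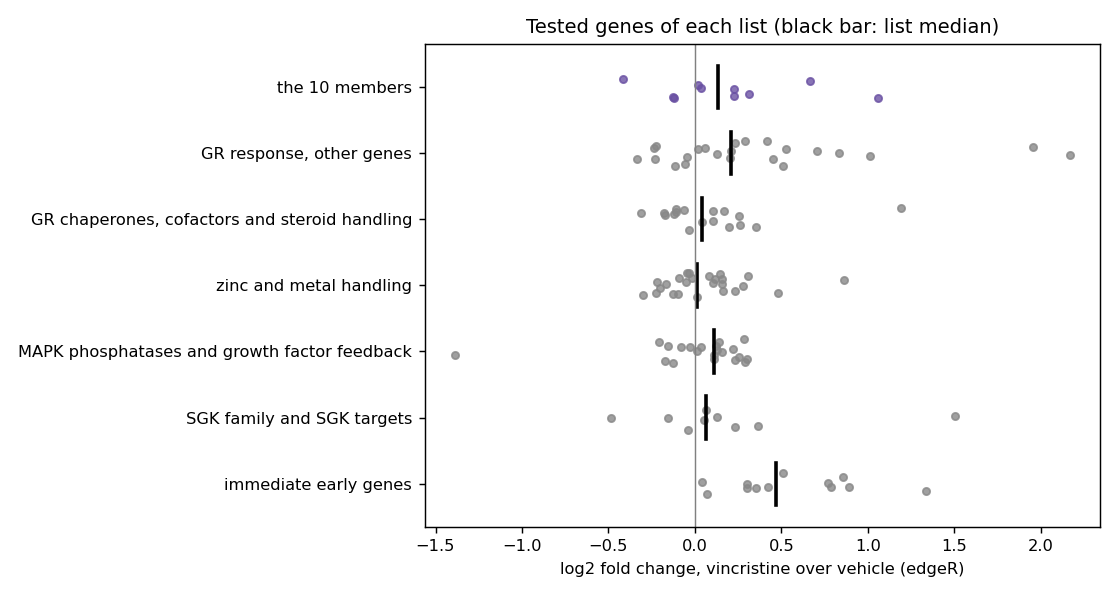
Log2 fold change, vincristine over vehicle (horizontal axis), of each tested gene in the 10 members and in the 6 lists of related genes, with a black bar at each list's median. Medians lie between 0.01 for zinc and metal handling and 0.47 for immediate early genes, with 0.13 for the members.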

How the data were processed

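The authors deposited 1 table of raw counts per library, by gene symbol and without normalization. STAR, SAMtools and HTSeq with mm10 (GRCm38) are named, per the submitters' processing notes; the sources used here give no versions, gene annotation or strand setting. Libraries were stranded total RNA, read as single ends of 75 nucleotides, per the labels. Table names carry 10 µg, whereas the labels give a cumulative 40 µg. Groups and replicate numbers came from the sample titles. The counter's summary lines were left out. They held 31.1% to 40.5% of tallied alignments as not unique. Outside genes were 24.8% in vincristine replicate 1 and 14.8% to 17.0% in the other libraries.

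The test was edgeR 4.0.16 under R 4.3.3, with filterByExpr (minimum count 10), TMM scaling, robust estimateDisp and glmQLFit, and glmQLFTest, two-sided, with Benjamini-Hochberg adjustment over 16706 genes, a threshold of 0.05 and group as the only term. The SE is the log2 fold change divided by the square root of F. CPM values use TMM-scaled library sizes. DESeq2 1.42.0, limma-voom (limma 3.58.1), other scalings, filters, thinning, the replicate block and leaving out each library were alternatives; DESeq2 with each library left out was added after the data were seen. The fits were tested on simulated counts. Replicates were distinct libraries, with chi-square over degrees of freedom at 12.5 or more for each pair within a group. The labels call each pool a biological replicate.

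The members and lists were chosen with earlier results of these data known. Besides the members, the text names the 3 genes with the smallest p of each of 6 lists of related genes, and the 3 genes of the highest Pearson r with Fkbp5 and with Mt2. Outside this rule it also names Pdk4, Il1r2, Per1, Angptl4, Jun, Mt4 and the lymphocyte genes. Of 213 list entries 211 were found. Gene models are from GENCODE M21 on GRCm38, start sequences from RefSeq on GRCm38.p6. The sum over the lymphocyte markers and 1 of these markers are not reported here.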

Additional observations from a re-analysis of the deposited data

How the results depend on the processing

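Over all genes 60 were called. The number was 99 with every gene that had a read, 35 by limma-voom, 551 by DESeq2, 125 at a threshold of 0.1 and 261 with the replicate number as a block. Leaving out each library gave 0 to 346 by edgeR: 346, 6 and 18 without vincristine replicates 1, 2 and 3, and 0 without each vehicle replicate, with 1462, 1063 and 1409 genes then reaching 0.05 before adjustment. DESeq2 gave 600, 579 and 544 without vincristine replicates 1, 2 and 3, and 316, 206 and 319 without vehicle replicates 1, 2 and 3. Of the 10 members, 0 were called in every edgeR and limma-voom alternative. DESeq2 called 1, Zbtb16, with all libraries, without vincristine replicate 3 and without vehicle replicate 2; it called 1, Tsc22d3, without vehicle replicate 3, and 0 without the others. Among the 107 related genes tested, 0 were called by edgeR (22 reached 0.05 before adjustment, beside 11.4% of all genes). This became 1 with every gene that had a read, 1 at a threshold of 0.1, 11 by DESeq2, 3 with the replicate block and 0 to 5 by edgeR with a library left out. DESeq2 called 8, 9 and 8 without vincristine replicates 1, 2 and 3, and 7, 3 and 5 without vehicle replicates 1, 2 and 3.

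The signs of Fkbp5, Tsc22d3, Zbtb16, Dusp1, Mt1, Mt2 and Mt3 held in all alternatives run. Others turned, each near zero. By edgeR with a library left out, log2 fold changes were -0.26 to 0.021 for Nr3c1, -0.12 to 0.14 for Sgk1 and -0.19 to 0.18 for Errfi1. By DESeq2, Nr3c1 was at 0.0030 without vincristine replicate 3, Sgk1 at -0.13 without vincristine replicate 1 and -0.0022 and -0.097 without vehicle replicates 2 and 3, and Errfi1 at -0.20 without vincristine replicate 1 and -0.038 without vehicle replicate 2. The median member log2 fold change was 0.04 to 0.21 with a library left out. Same-numbered libraries correlated at 0.428, 0.248 and -0.0944 in their deviations from group means. Libraries of unlike number correlated at -0.487 (vincristine replicate 1 with vehicle replicate 2) to 0.491 (vincristine replicate 3 with vehicle replicate 2). Vincristine replicates 1 and 2 correlated most highly with the vehicle library of their own number, and vincristine replicate 3 did not. These values do not settle whether the numbers mark pairs, and the main fit did not take them as pairs. With the replicate block, 0 members were called, and Zbtb16 had an edgeR adjusted p of 0.0857 and Mt2 of 0.156. Other scalings shifted the median gene by 0.0161 or less (log2). The causes were not tested. Depth limits the low genes most, such as Dusp2 and Scnn1a.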
